A study of Arabidopsis thaliana with 12 samples.

Results

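Chilling-responsive splicing in Arabidopsis thaliana seedlings was sorted by the authors into 2 gene lists, SmEb-dependent (394 genes with 420 splicing events) and SmEb-independent (352 genes with 383 events). The members were chosen by those lists, which rest on the readout itself. Joined by gene to the chilling tables, all 394 SmEb-dependent genes were listed in the table of the wild type Col-0 and absent from that of the smeb mutants. Of the 352 SmEb-independent genes, 351 were listed in the smeb table and absent from the Col-0 table. The lists hold 746 of the 1492 genes in either chilling table or either list, and the other 746 genes were listed in both chilling tables. The name SmEb-independent therefore goes against the content of its list: 351 of its 352 genes were called in the smeb table alone. A gene called in both the Col-0 and the smeb table stands in neither list. Both names are kept here as the authors' labels. Membership goes by gene and not by event. The 746 genes in both tables had 919 Col-0 and 977 smeb events, while 812 positions were listed in both tables. Not every event of these genes was therefore listed for both genotypes.

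RNA was sequenced from whole seedlings, 12 days old and grown on MS medium, of the mutants smeb-1 and smeb-2 and of the wild type Col-0. Each genotype was sampled at 4 °C for 24 h and at 22 °C, with 2 replicates in each of the 6 groups, 12 libraries in all. The labels give the unchilled plants both as 22 °C for 24 h and as 0 h of treatment, and they do not say what the lesion in either allele is or whether replicates were separate cultures. The tables name smeb or Col-0 without the allele and do not state which groups were set against each other. No value per sample, size or direction of a change is in them, so events are described as listed, the depth is unknown and no test over samples could be run.

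SmEb encodes an Sm core protein. Sm proteins form a ring around the small nuclear RNAs of the spliceosome, and those RNAs find the splice sites of an intron: U1 pairs with the 5′ splice site and U2 with the branch site upstream of the 3′ splice site. A change in how well a site is found can shift its position by some bases, leave an exon out of the mRNA or leave an intron in it. In plants, chilling is known to change the splicing of many genes, among them those of splicing factors and of the circadian clock.

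The sequences of 12 events in coding regions show what the calls stand for, 6 from each list, read from the RefSeq copy of the TAIR10.1 assembly. The first set shows SmEb-dependent introns listed as retained, in the direction of the gene, with the first and last 2 bases in capitals and, for an annotated intron, the first stop codon that the retained intron adds to the reading frame. The HAB1 intron lies at chr1:27392394-27392516 on the plus strand, that of the leaf-development factor ATHB-15 at chr1:19410060-19410138 on the minus strand, and the stretch of the phytochrome-interacting factor PIF5 at chr3:21829087-21829165 on the minus strand.

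HAB1: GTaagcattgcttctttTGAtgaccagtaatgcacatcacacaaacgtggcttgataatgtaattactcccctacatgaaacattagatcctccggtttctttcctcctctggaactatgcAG

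ATHB-15: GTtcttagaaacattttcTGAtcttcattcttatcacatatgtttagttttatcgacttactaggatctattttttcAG

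PIF5: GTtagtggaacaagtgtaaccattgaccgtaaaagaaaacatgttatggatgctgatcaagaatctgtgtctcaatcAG

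All 3 run from GT to AG, the letters of an ordinary intron. A TGA starts at base 18 of the HAB1 intron and at base 19 of the ATHB-15 intron. The PIF5 stretch is no annotated intron: in the reference it lies within an exon. The second set shows SmEb-dependent stretches that are gained or lost at a 3′ splice site, or as an exon, in capitals with 20 bases on either side. They are in the carbonic anhydrase BCA6 (chr1:21538374-21538421, minus strand), the polycomb protein VRN2 (chr4:9479083-9479128, plus strand) and the B-box factor LZF1 (chr1:29568245-29568344, plus strand).

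BCA6: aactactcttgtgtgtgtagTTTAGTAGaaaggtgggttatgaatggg

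VRN2: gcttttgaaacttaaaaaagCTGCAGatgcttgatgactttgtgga

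LZF1: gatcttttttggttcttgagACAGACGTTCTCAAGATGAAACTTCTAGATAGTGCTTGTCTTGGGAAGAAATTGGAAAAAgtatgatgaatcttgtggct

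In BCA6 and VRN2 an AG stands both just before the capitals and at their end, so that the 2 acceptors are 8 and 6 nt apart. Use of the inner acceptor in BCA6 shifts the reading frame, and in VRN2 it removes or adds 6 nt in frame. The 60-nt exon of LZF1 is annotated both as included and as skipped. The third set holds SmEb-independent introns, of the Rieske protein PETC (chr4:1440347-1440437, plus strand) and the kinase gene AT5G58540 (chr5:23663491-23663567, plus strand), marked as above.

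PETC: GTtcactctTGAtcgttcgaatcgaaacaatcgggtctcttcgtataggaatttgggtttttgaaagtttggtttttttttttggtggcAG

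AT5G58540: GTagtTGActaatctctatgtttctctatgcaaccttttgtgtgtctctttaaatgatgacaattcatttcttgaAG

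Both are intron 1 of their transcript and add a TGA within their first bases, at base 10 in PETC and at base 6 in AT5G58540. The fourth set holds SmEb-independent cassette exons in capitals with 20 bases of intron on either side. They belong to the G protein subunit GP ALPHA 1 (chr2:11198776-11198893, plus strand), the calcium pump ACA10 (chr4:14615229-14615324, minus strand), the molybdenum cofactor sulfurase ABA3 (chr1:5661503-5661588, plus strand) and the proline synthesis enzyme P5CS1 (chr2:16602249-16602392, minus strand).

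GP ALPHA 1: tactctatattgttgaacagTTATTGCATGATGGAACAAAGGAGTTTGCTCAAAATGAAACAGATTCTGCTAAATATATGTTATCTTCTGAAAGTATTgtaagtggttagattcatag

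ACA10: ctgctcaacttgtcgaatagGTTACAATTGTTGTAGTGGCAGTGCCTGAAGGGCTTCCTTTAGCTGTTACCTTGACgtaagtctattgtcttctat

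ABA3: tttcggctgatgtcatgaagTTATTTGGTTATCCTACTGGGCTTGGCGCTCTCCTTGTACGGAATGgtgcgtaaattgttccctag

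P5CS1: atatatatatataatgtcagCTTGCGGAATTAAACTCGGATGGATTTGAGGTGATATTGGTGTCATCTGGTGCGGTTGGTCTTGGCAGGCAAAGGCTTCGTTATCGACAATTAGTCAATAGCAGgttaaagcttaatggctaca

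Each of the 4 exons follows AG and is followed by GT. The exons of GP ALPHA 1 (exon 6, 78 nt), ACA10 (exon 16, 56 nt) and ABA3 (exon 7, 46 nt) are annotated with no transcript that skips them, whereas exon 3 of P5CS1 (104 nt) is skipped in an annotated form. Of the 4, the GP ALPHA 1 exon alone is a multiple of 3 nt long.

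Some events stand under a gene that does not hold their position, which bears on who is a member. Of the 420 SmEb-dependent events, 16 (3.81%) do not lie wholly inside the listed gene as annotated, 7 of them on another chromosome. The 16 include the event of AT1G53785, a gene that the reference lacks. Of the 382 SmEb-independent events with a position, 13 (3.40%) do not lie wholly inside it, 2 of them on another chromosome. The 13 include the event of AT1G19715, which overlaps its gene. No event of 14 SmEb-dependent and 7 SmEb-independent genes lies wholly inside, which leaves 380 and 345 other genes. In several cases the listed gene and the gene at the position share a name. The event listed for ATX1 (AT2G31650), a histone methyltransferase, lies at chr1:24686839-24686853 in AT1G66240, a copper chaperone also called ATX1. That of PPOX (AT4G01690) lies at chr5:20329643-20329777 in AT5G49970, which has the same symbol, and that of UVI4 (AT2G42260) lies in PYM (AT1G11400), a name that UVI4 also bears. In the SmEb-independent list, the events of the receptor kinase BAM3 (AT4G20270) lie in the beta-amylase gene AT4G17090, also named BAM3, and that of SULA (AT2G21280) lies in AT5G05930, with which it shares the name GC1. A shared name was found for 3 of the 16 SmEb-dependent and 3 of the 13 SmEb-independent events not wholly inside their gene. How the genes were assigned was not tested.

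At 5 positions the identical interval was listed in both chilling tables under 2 different genes. They involve 4 SmEb-dependent and 3 SmEb-independent genes. All events of the 4 SmEb-dependent genes and of 2 SmEb-independent genes (AT2G21960 and AT5G06180) are at such positions, whereas MMH-1 also has 2 events elsewhere. The cassette exon at chr5:1874841-1874934 stood at an FDR of 1.23e-06 under AT5G06190 (SmEb-dependent) and of 1.53e-07 under its neighbour AT5G06180 (SmEb-independent) in the authors' deposited tables. The alternative site at chr3:8941712-8941767 had an FDR of 0 in both of the authors' deposited tables, under HSFC1 (AT3G24520) in smeb and under its antisense gene AT3G24518 in Col-0, which made AT3G24518 alone SmEb-dependent. The remaining 3 positions were those of AT1G52510 and MMH-1 (AT1G52500), with 2 intervals, and of SEP2 (AT2G21970) and AT2G21960. In those 3 the kind was a 3′ site under the first gene and a 5′ site under the second, which lies on the opposite strand. Without genes that rest on such positions alone, 390 SmEb-dependent and 350 SmEb-independent genes remained.

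Entry into a list followed from a gene's absence from the other table, and by recovered ranks the tables differ in how complete they are. The recovery assumes that the values headed Adjusted P Value are the p behind a Benjamini-Hochberg FDR. Ranks came out whole for 88.4% of smeb and 85.3% of Col-0 events with p above 0. On that assumption 10308 events were tested for smeb, of which 1359 (13.2%) were listed. For Col-0 they were 9710, of which 1339 (13.8%) were listed. SmEb-dependent genes were 34.6% of the 1140 genes of the Col-0 table, and SmEb-independent genes were 32.0% of the 1097 genes of the smeb table. At an FDR under 0.001, at least 55 events (6.51%) that rank above the last listed smeb event were not listed, against 4 (0.620%) for Col-0. At the full limit of 0.05 these were 334 (19.7%) for smeb and 7 (0.520%) for Col-0. Whether SmEb-dependent genes are among the unlisted smeb events was not tested. AT2G39725, an LYR family gene with an alternative 5′ site at FDR 0.0142 in the authors' deposited list of SmEb-independent genes, was in neither chilling table. Its end overlaps the gene of the Rubisco activase RCA, which is listed in both.

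The kind of event differed between the lists. Alternative 3′ splice sites led the SmEb-dependent list, with 150 of 420 events (35.7%, 95% Wilson interval 31.3 to 40.4), against 66 of 383 SmEb-independent events (17.2%, 13.8 to 21.3). Cassette exons led the SmEb-independent list: they were 61 SmEb-dependent events (14.5%, 11.5 to 18.2) and 136 SmEb-independent events (35.5%, 30.9 to 40.4). For both kinds the 2 intervals lie apart, and events of genes in both tables fall between the lists, with 24.7% of smeb and 25.9% of Col-0 events at 3′ sites, and 25.7% of smeb and 24.3% of Col-0 events in cassette exons. Intervals given here cover counting error only, since events of 1 gene and of 1 set of libraries are not independent.

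Alternative 5′ splice sites followed the 3′ sites, with 97 SmEb-dependent events (23.1%, 19.3 to 27.4) and 52 SmEb-independent events (13.6%, 10.5 to 17.4). Retained introns were 80 SmEb-dependent events (19.0%, 15.6 to 23.1) and 102 SmEb-independent events (26.6%, 22.5 to 31.3), with intervals that overlap. Alternative starts (22 and 14 events), alternative ends (5 and 3), multiple cassettes (4 and 10) and mutually exclusive exons (1 and 0) made up the rest. Most genes had 1 event: 371 SmEb-dependent genes (94.2%) and 324 SmEb-independent genes (92.0%). Of the genes in both tables, 76.0% had 1 event in smeb and 83.0% in Col-0. AT4G37560, an acetamidase family gene, was the exception in the SmEb-dependent list with 5 events, 2 at 3′ sites, 2 at 5′ sites and 1 cassette exon of 236 nt.

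**Figure D1:**
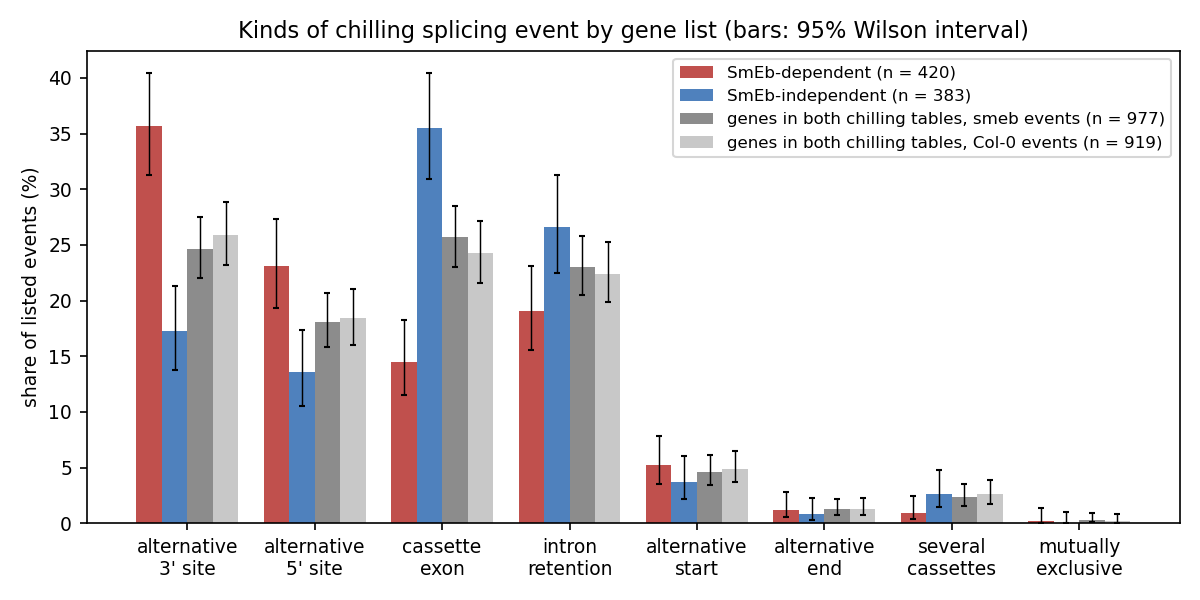
Share of listed events of each kind (y axis, percent) among SmEb-dependent events, SmEb-independent events and the smeb and Col-0 events of genes in both chilling tables; vertical lines are 95% Wilson intervals. SmEb-dependent events are highest at alternative 3′ sites (35.7%) and SmEb-independent events at cassette exons (35.5%), with the genes in both tables between them.

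The difference at 3′ sites was larger among events of higher FDR, at 8.34 percentage points under 0.001 and 18.5 over all listed events. The FDR limit of 0.05 chose the members, so FDR values are given as a description. The median FDR in the authors' deposited lists was 0.00946 for SmEb-dependent and 0.00266 for SmEb-independent events, and 3.42e-05 for smeb and 0.000154 for Col-0 events of genes in both tables. An FDR of 0 was given to 13 SmEb-dependent events (3.10%) and to 41 SmEb-independent events (10.7%) in the authors' deposited lists. Between 0.01 and 0.05 lay 204 SmEb-dependent events (48.6%), 90 of them (44.1%) at 3′ sites and 15 (7.35%) in cassette exons. Of the 98 SmEb-dependent events under 0.001, 22 (22.4%) were at 3′ sites, 27 (27.6%) at 5′ sites and 27 in cassette exons. The SmEb-independent list kept its order in all 3 bands, with cassette exons at 38.7% of 163 events under 0.001 and 31.8% of 129 events from 0.01 up.

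**Figure D2:**
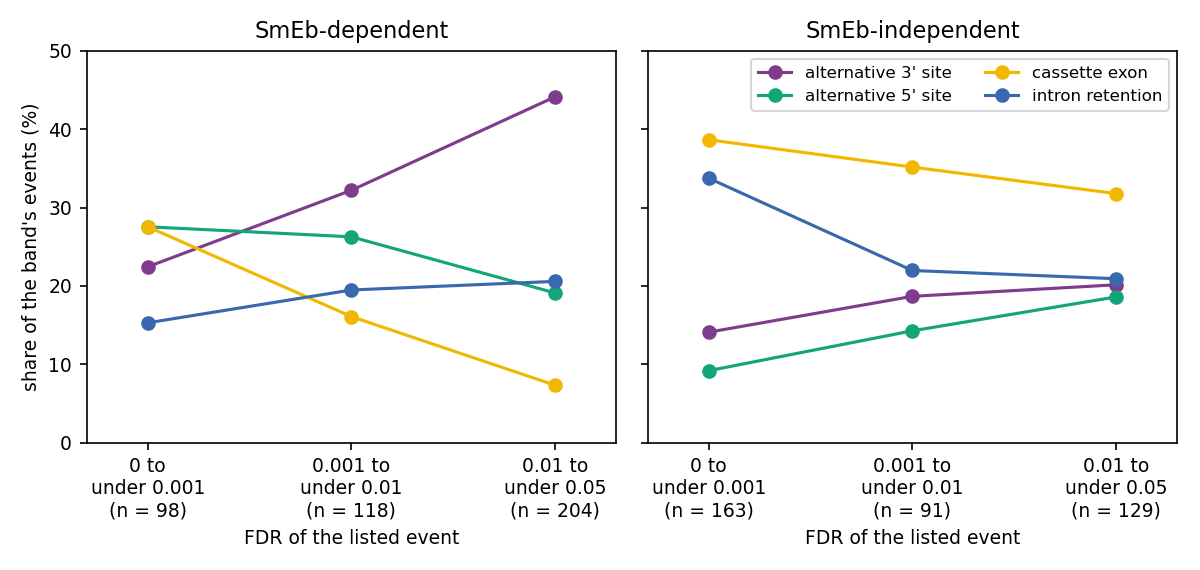
Share of the 4 main kinds (y axis, percent) within bands of FDR (x axis) in the SmEb-dependent list (left) and the SmEb-independent list (right). In the SmEb-dependent list the 3′ sites go from 22.4% of 98 events in the lowest band to 44.1% of 204 events in the highest, while cassette exons go from 27.6% to 7.35%; in the SmEb-independent list cassette exons lead in each band.

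The members just inside the limit were the SmEb-dependent AT5G12470, with a 5′ site at an FDR of 0.0496, and the SmEb-independent AT3G14290, with a cassette exon at 0.0494, in the authors' deposited lists. Values just outside the limit were not analysed here. By kind, retained introns made up 4 of the 13 SmEb-dependent and 28 of the 41 SmEb-independent events whose FDR is 0 in the authors' deposited lists.

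The cassette exons of the lists were of different types in the annotation. Of the SmEb-dependent ones, 13 of 61 (21.3%, Wilson interval 12.9 to 33.1) are annotated exons that no annotated transcript skips, against 80 of 136 SmEb-independent ones (58.8%, 50.4 to 66.7). In genes of both tables such exons made up 28.3% of 251 smeb and 21.1% of 223 Col-0 cassette events, and the interval of the SmEb-independent share lies above theirs. The opposite state, a skipped form in the annotation with no such exon, was found for 22 SmEb-dependent (36.1%) and 19 SmEb-independent cassettes (14.0%). Under an FDR of 0.001 the always-included exons were 18.5% of SmEb-dependent and 58.7% of SmEb-independent cassettes.

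The always-included SmEb-independent exons came from genes of many functions. Besides GP ALPHA 1, ACA10 and ABA3 they include exon 14 of CTC1 (109 nt), a telomere protein, exon 3 of XRN3 (77 nt), a nuclear exoribonuclease, exon 13 of the sodium/proton exchanger NHX5 (61 nt) and exon 9 of ALG3 (117 nt), a mannosyltransferase. Their FDR in the authors' deposited list was 1.31e-08 for CTC1, 0.000146 for XRN3, 4.15e-07 for NHX5 and 2.56e-07 for ALG3. Of the 80 exons, 33 are a multiple of 3 nt and 72 lie inside the coding span. The receptor-like kinases CRK40 and CRK22, the E2 enzyme UBC6, the retromer subunit VPS26A, the transcription initiation factor TAF13 and the actin-nucleating ARPC4 had such exons as well; these were chosen for their known roles after the values were seen. In the SmEb-dependent list the 13 include exon 9 of the fumarase FUM2 (67 nt), exon 10 of the ubiquitin ligase RIN2 (68 nt), exon 5 of the DNA glycosylase NTH2 (125 nt) and exon 15 of the RNA ligase RNL (80 nt). Of those 13, 2 are a multiple of 3 nt.

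**Figure D3:**
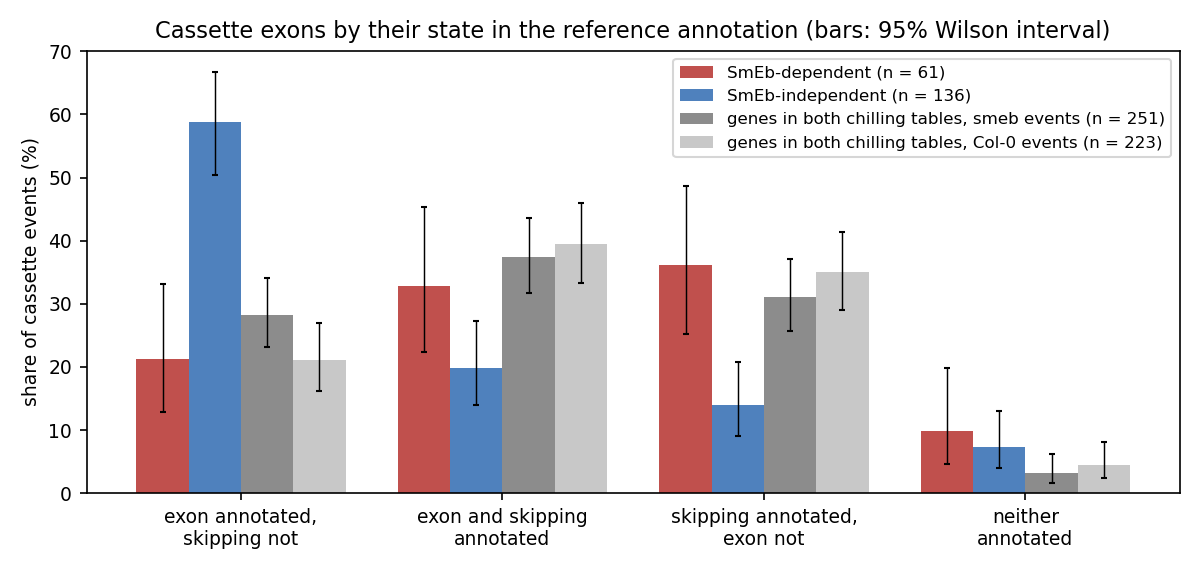
Cassette events (y axis, percent of cassette events) by whether the exon and its skipping are annotated, for SmEb-dependent and SmEb-independent events and for the smeb and Col-0 events of genes in both chilling tables; vertical lines are 95% Wilson intervals. Annotated exons with no annotated skipping make up 58.8% of SmEb-independent cassettes and between 21.1% and 28.3% of the other 3 sets.

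Position in the transcript differed less. Of the 4 main kinds, 238 of 388 SmEb-dependent events (61.3%) and 249 of 355 SmEb-independent events (70.1%) lay inside the coding span, a difference of -8.80 percentage points. Among cassette exons, 37 of 61 SmEb-dependent (60.7%, Wilson interval 48.1 to 71.9) and 112 of 136 SmEb-independent ones (82.4%, 75.1 to 87.8) were in the coding span. The 5′ UTR held 96 SmEb-dependent (24.7%) and 72 SmEb-independent events (20.3%). Counts by region, here and for retained introns below, include the few events not wholly inside their listed gene. Those were placed by the coordinates of the listed gene alone, so the region of an event in another gene has no meaning. Lengths divisible by 3 did not set the lists apart, at 33.0% of SmEb-dependent and 32.4% of SmEb-independent events.

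Retained introns were largely annotated ones in both lists, 62 of 80 SmEb-dependent (77.5%) and 82 of 102 SmEb-independent (80.4%). In the coding span, 23 of 28 SmEb-dependent introns whose frame could be read (82.1%, Wilson interval 64.4 to 92.1) and 30 of 37 SmEb-independent ones (81.1%, 65.8 to 90.5) add an in-frame stop codon. Those shares compare with 89.1% of 109115 introns inside the coding span in the reference, counted in the first coding transcript of each gene. In genes of both tables they were 63.7% of smeb and 67.1% of Col-0 introns. The 5′ UTR held 23 SmEb-dependent (28.8%) and 37 SmEb-independent (36.3%) retained introns. Of reference introns, counted in the first coding transcript of each gene, 4.47% lay in the 5′ UTR. The measures are unlike, since the list shares use the coding span over all transcripts and include stretches that are not annotated introns. For 10 SmEb-dependent and 5 SmEb-independent retained introns GT and AG mark the ends only when the other strand is read, so their gene is uncertain.

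Shifts at 3′ sites were short. Their median was 18 nt (5 to 787) in SmEb-dependent and 24 nt (5 to 873) in SmEb-independent events. Shifts of 12 nt or less made up 54 of 150 SmEb-dependent (36.0%) and 21 of 66 SmEb-independent 3′ sites (31.8%). The shortest shift, 5 nt, occurred at 18 SmEb-dependent and 2 SmEb-independent 3′ sites, and at 29 of 241 smeb and 26 of 238 Col-0 3′ sites of genes in both tables. No shift under 5 nt was listed in any of these sets. At 5′ sites the median shift was 31 nt in both lists. Alternative starts had a length of exactly 81 nt in 11 of 22 SmEb-dependent and 3 of 14 SmEb-independent cases, and in 21 of 45 in each set of the genes in both tables; why this length recurs was not tested.

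Medians of gene structure lay close together. SmEb-dependent and SmEb-independent genes both had a median of 7 annotated introns, the same as genes in both tables, against 4 over all 24229 genes with an intron. The median gene length was 3046 nt for SmEb-dependent and 2978 nt for SmEb-independent genes. Several transcripts were annotated for 84.5% of SmEb-dependent and 79.0% of SmEb-independent genes.

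By function, the lists were mixed and close to each other. Keywords in the authors' descriptions placed 222 of 394 SmEb-dependent and 193 of 352 SmEb-independent genes in at least 1 of 10 classes. Metabolic enzymes were the largest named class, with 67 SmEb-dependent (17.0%) and 46 SmEb-independent genes (13.1%). Kinases and phosphatases numbered 37 (9.39%) and 27 (7.67%), and transcription factors and DNA-binding proteins 24 (6.09%) and 15 (4.26%), with the SmEb-dependent list first. Genes of the ribosome and translation ran the other way, with 7 SmEb-dependent (1.78%) and 14 SmEb-independent genes (3.98%). Keywords also misplace genes. AT5G25520, described as a transcription elongation factor, was counted in this class, and the ubiquitin ligase KAK among metabolic enzymes. The difference in every one of the 10 classes was smaller than its 95% counting interval. The sign of the difference turned for splicing genes with reference product names as the source, and for the ubiquitin and unknown classes at an FDR limit of 0.01. Genes matched by keyword to splicing and RNA processing made up 2.28% of SmEb-dependent and 2.84% of SmEb-independent genes, against 6.17% of genes in both tables. The keywords miss some splicing factors, among them the SmEb-independent SR30, RS2Z33 and PTB2, so these shares are not full counts.

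**Figure D4:**
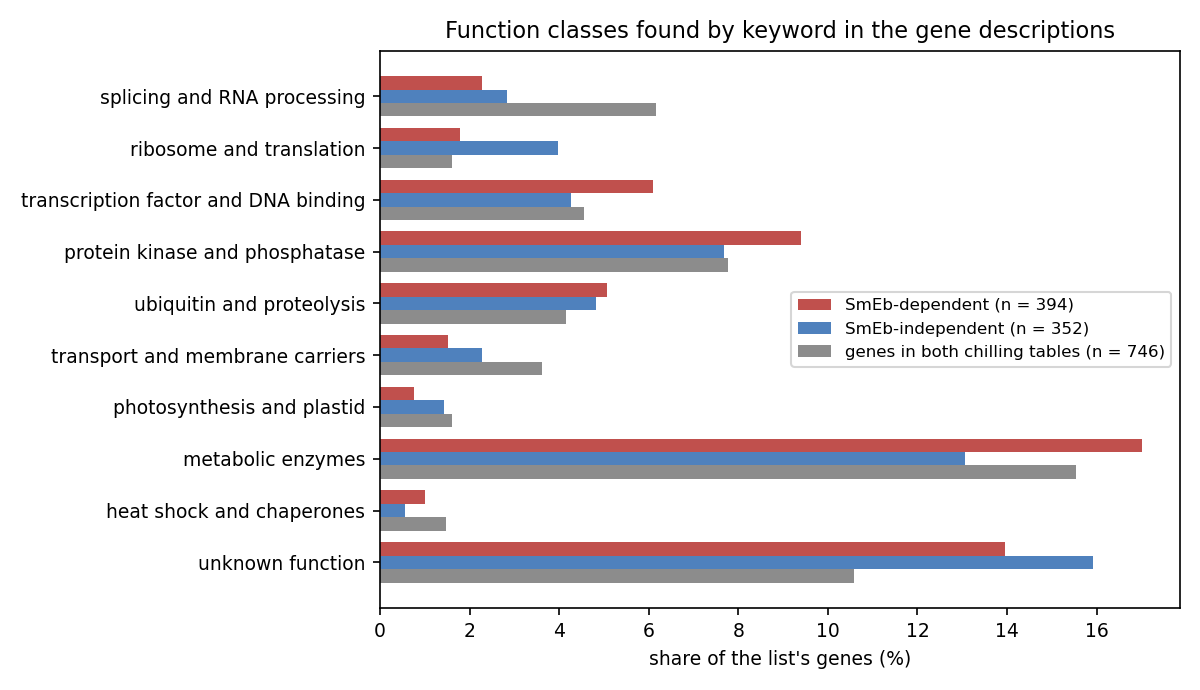
Share of genes (x axis, percent) in 10 function classes for the SmEb-dependent list (top bar of each class), the SmEb-independent list (middle bar) and genes in both chilling tables (bottom bar). Classes are keyword matches in the gene descriptions and miss some splicing factors. Metabolic enzymes make up 17.0% of SmEb-dependent and 13.1% of SmEb-independent genes. Genes matched to splicing are most frequent, at 6.17%, among genes in both tables.

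SR splicing factors had cassette exons and 3′ site shifts at their lowest FDR in both lists. Of 20 SR and SR-like splicing factors, proteins rich in serine and arginine that mark exons for the spliceosome, 2 were SmEb-dependent, 3 were SmEb-independent and 7 were in both tables. The 2 are out of 9 in the Col-0 table and the 3 out of 10 in the smeb table, where 34.6% of all Col-0 genes are SmEb-dependent and 32.0% of all smeb genes SmEb-independent. These counts go by listed gene and leave out SCL33. A cassette listed for AT2G29060 in both chilling tables lies in SCL33, with FDR 0 for Col-0 and 2.67e-08 for smeb in the authors' deposited tables. SR45a had a 99-nt cassette at an FDR of 6.62e-08 and SR45 a 3′ site shift of 21 nt at 0.0455 in the authors' deposited list of SmEb-dependent genes. In the authors' deposited list of SmEb-independent genes, SR30 had a 338-nt shift at a 3′ site at an FDR of 0, RS2Z33 a 218-nt shift at 3.79e-08 and SR34a a 245-nt cassette in its 5′ UTR at 0.000110. The shifts of SR30 and RS2Z33 are thus long beside the median of their kind. Of 28 core spliceosomal and associated genes, 12 were in both tables, none was SmEb-dependent and 1 was SmEb-independent: PTB2, a polypyrimidine tract-binding protein, which had a 61-nt cassette at FDR 7.35e-09 in the authors' deposited list. These are 0 of the 12 in the Col-0 table and 1 of the 13 in the smeb table, beside the same 34.6% and 32.0% over all genes. This set was drawn up with earlier results of these data known, and its counts depend on that choice. It leaves out the SmEb-dependent splicing factor SUA and the PRP40A and LSM3A named next. The SmEb-independent PRP40A, a U1-associated factor, and LSM3A, an Sm-like protein, had 5′ site shifts of 26 and 43 nt at FDRs of 0.00925 and 0.000751 in the authors' deposited list.

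Of the 14 genes of a light signalling set, 6 were in the Col-0 table, and 4 of these 6 were SmEb-dependent, against 34.6% over all Col-0 genes; none was SmEb-independent. PIF5 had its 79-nt stretch at an FDR of 0, LZF1 its 60-nt exon at 2.23e-05, PIF3 a 60-nt shift in the 5′ UTR at 0.00705 and COP1 a 409-nt shift at 0.0126 in the authors' deposited list. PIF3 and PIF5 are transcription factors that phytochromes bring to breakdown in the light, COP1 is a ubiquitin ligase that removes light-promoting factors in the dark, and LZF1 promotes greening. LHCB2.1, which encodes a light-harvesting protein of photosystem II, had a retained intron of 239 nt with FDR 1.10e-11 in the authors' deposited list. The other 2 genes of the set in the Col-0 table, PHYA and HYH, were also in the smeb table. This set was drawn up with earlier results of these data known.

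The remaining sets were small, and their counts stand beside 34.6% of all Col-0 table genes in the SmEb-dependent list and 32.0% of all smeb table genes in the SmEb-independent list. Of 19 circadian clock genes, all 10 that were in a table were in both, and none was in either list. Of 25 cold-response genes, 2 of the 5 in the Col-0 table were SmEb-dependent, 1 of the 4 in the smeb table was SmEb-independent, and COR15A, ERD10 and COR27 were in both tables. CAMTA3, a calmodulin-binding activator of CBF genes (retained 5′ UTR intron of 76 nt, FDR 0.000269), and COR28 (cassette of 184 nt, 0.000297) were SmEb-dependent and P5CS1 (0.00133) SmEb-independent in the authors' deposited lists. Of 25 abscisic acid genes, 1 of the 6 in the Col-0 table was SmEb-dependent, 2 of the 7 in the smeb table were SmEb-independent, and ABF2, ABF3, SnRK2.2, SnRK2.3 and ABA1 were in both tables. The phosphatase HAB1, which restrains the hormone's signalling, was SmEb-dependent at an FDR of 0.0117, and AFP3 and ABA3 were SmEb-independent at FDRs of 0 and 0.00226 in the authors' deposited lists. AFP3 encodes a protein that binds abscisic acid transcription factors, and ABA3 the molybdenum cofactor sulfurase named above. BES1, a transcription factor of brassinosteroid signalling, had a 94-nt shift at a 5′ site that reaches across the end of the coding span, with FDR 7.83e-08 in the authors' deposited list of SmEb-dependent genes. HSFA1D, a master factor of the heat response, had a 78-nt cassette in its coding span that is not annotated as an exon, at an FDR of 1.26e-06 in the same authors' deposited table. Of 5 brassinosteroid genes BES1 alone was in a chilling table, and of 7 heat shock and drought factors HSFA1D and HSFA1E, the latter in both. None of 4 genes of nonsense-mediated decay was in either chilling table, and none was in either list.

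Further SmEb-dependent genes led by FDR were the thioredoxin ACHT4 (5′ site, 25 nt) and the acetyltransferase NSI (3′ site, 13 nt), both with an FDR of 0 in the authors' deposited list. BGLU9 (cassette of 64 nt) also stood at 0 in the authors' deposited list, and BPM3 (cassette of 49 nt) at 3.28e-11. A plastid protease and enzymes of carbon metabolism followed, with DEG8 (5′ site, 11 nt), BCA6 (3′ site, 8 nt) and FUM2 (cassette of 37 nt). The vernalization gene VRN2, which keeps FLC silent after cold, had its 6-nt shift at 2.81e-05 in the authors' deposited list. PRP4, a proline-rich protein, also stood at 0 in the authors' deposited list, but its 45-nt stretch reads as an intron only on the opposite strand.

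Of the 20 SmEb-independent genes with a symbol and the lowest FDR, 8 had a retained intron in a UTR, against 0 of the 20 SmEb-dependent ones; FDR chose these genes, so the counts are a description. Over all retained introns the shares in a UTR were 34 of 80 SmEb-dependent (42.5%) and 45 of 102 SmEb-independent events (44.1%). These shares also count events in another gene, whose region has no meaning. Among the 8 were DEK1, a calpain (3′ UTR, 66 nt), SLK2, a corepressor (5′ UTR, 297 nt), PUR5, of purine synthesis (5′ UTR, 125 nt), UBQ14, a polyubiquitin (5′ UTR, 297 nt), SNF7.1, of vesicle sorting (5′ UTR, 89 nt), and KAK, a ubiquitin ligase of trichomes (3′ UTR, 82 nt). All 6 had an FDR of 0 in the authors' deposited list. Nucleolin NUC-L1 (45 nt) and the chaperone HSC70-1 (102 nt) were called for stretches within the coding span that no transcript has as an intron, with FDR values of 0 in the authors' deposited list. The small GTPase RABG3B had 2 cassettes, the first a 58-nt stretch that is not annotated, and the zinc transporter ZAT a 64-nt exon in the 5′ UTR.

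The gene ontology (GO) tables of the authors share no term between the lists. For SmEb-dependent genes, the authors' deposited table gives 16 terms with adjusted p from 0.133 to 0.236, none under 0.05. For SmEb-independent genes, the authors' deposited table gives 12 terms with adjusted p from 0.0407 to 0.265, of which 1, ribonucleoprotein (RNP) complex biogenesis, is under 0.05. Shares in these tables are of 318 SmEb-dependent and 296 SmEb-independent genes, over a background of 21859 genes.

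RNP complex biogenesis held 18 SmEb-independent genes, 6.08% of the list and 3.04 times the share in the background, at an adjusted p of 0.0407 in the authors' deposited table. Among its members were NUC-L1, the exoribonuclease XRN3, POP4 of RNase P and MRP, the exosome subunit RRP45a, the snoRNP assembly factor NUFIP, PPAN, which is related to Peter Pan of Drosophila, and the ribosomal protein RPS5B. Retained introns were listed for 7 of the 18 at their lowest FDR, of which those of NUFIP (96 nt), POP4 (136 nt), RRP45a (124 nt), RPS5B (79 nt) and the ribosomal protein gene AT5G22440 (110 nt) lie in the 5′ UTR. The term shares 11 genes with the second one, ncRNA metabolic process (16 genes, adjusted p 0.117 in the authors' deposited table), so the terms are not separate observations. Of the 18, 12 had an event under an FDR of 0.01, close to the 68.5% of the whole SmEb-independent list.

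In the SmEb-dependent list, regulation of RNA splicing led with 5 genes, 1.57% of the list against 0.151% of the background, at an adjusted p of 0.133 in the authors' deposited table. They were SR45a, SR45, the KH-domain genes AT5G56140 and AT3G08620, and SUA, a splicing factor known as a suppressor of abi3-5. All 5 are also among the 11 genes of RNA splicing (adjusted p 0.232 in the authors' deposited table). SR45a and AT5G56140 had an event under an FDR of 0.01, 2 of 5 beside 207 of the 394 genes of the whole list (52.5%). The second term, anatomical structure arrangement, held BES1, ATHB-15, the phosphatase KAPP, the folate enzyme DFB, PSD, SPL10 and ATX1, the last of which has its event in another gene, at an adjusted p of 0.133 in the authors' deposited table. Photosynthesis (9 genes, adjusted p 0.232 in the authors' deposited table) held NSI, LHCB2.1, DEG8, FUM2, PPD5 and SEP2, whose 5-nt event lies in its neighbour. The response to red or far red light (9 genes, adjusted p 0.232 in the authors' deposited table) held PIF3, PIF5, COP1, LZF1, LHCB2.1, COR28 and FAR1.

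**Figure D5:**
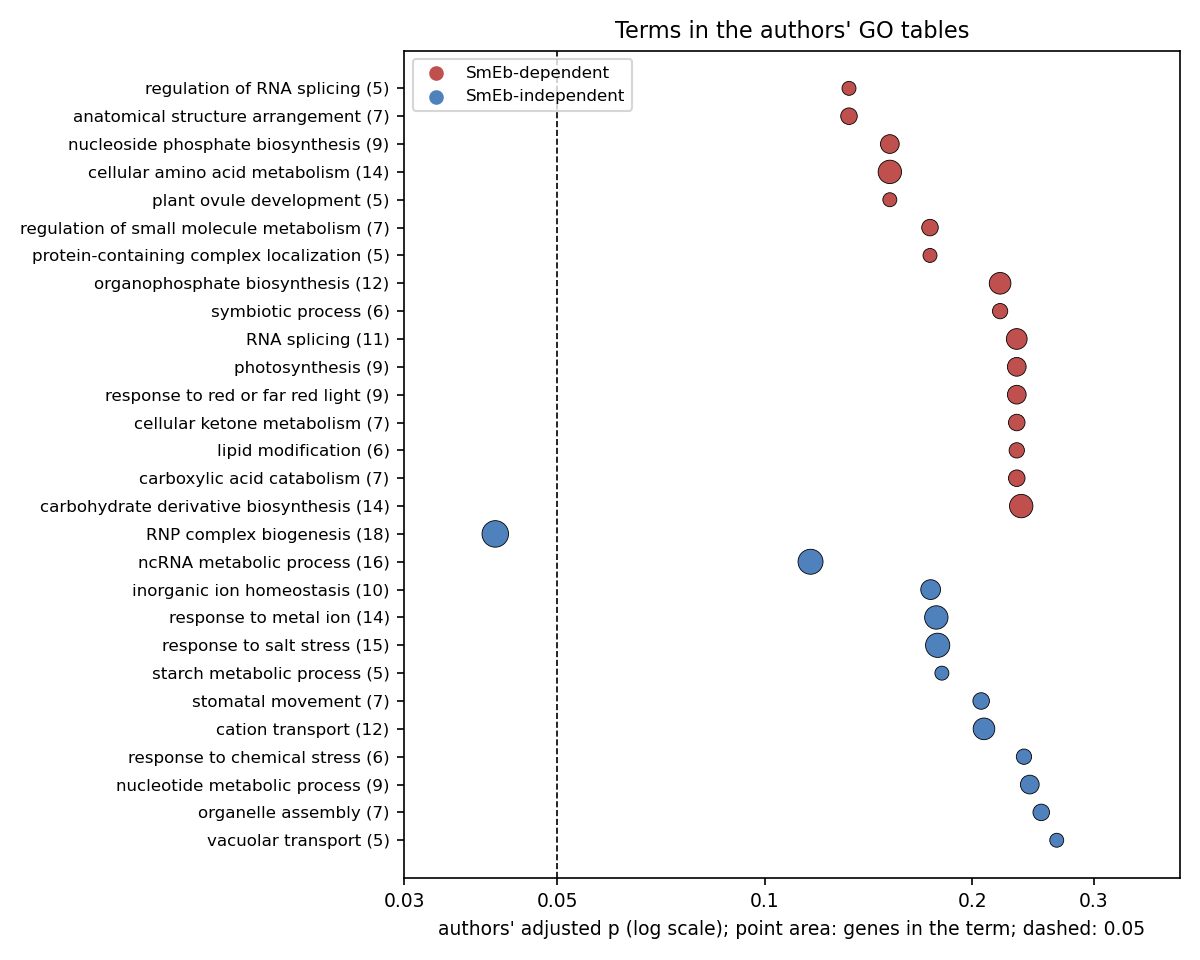
Adjusted p (x axis, log scale) of each term in the authors' deposited GO tables, SmEb-dependent terms above and SmEb-independent terms below; the point area and the number in brackets give the genes in the term, and the dashed line marks 0.05. RNP complex biogenesis, at 0.0407 with 18 SmEb-independent genes, is the 1 term left of the line.

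Salt and metal responses were listed for the SmEb-independent genes. Response to salt stress held 15 genes, among them P5CS1, ABA3, the calcium sensor CBL1 (cassette of 83 nt), RD20 (cassette of 126 nt) and ABCC5 (cassette of 50 nt), at an adjusted p of 0.178 in the authors' deposited table. Of these 15 genes, 14 had an event under an FDR of 0.01, as did 241 of the 352 genes of the whole list (68.5%). Response to metal ion held 14 genes, among them the superoxide dismutase FSD1, the copper chaperone COX17, ZAT and HSC70-1, at an adjusted p of 0.177 in the authors' deposited table. It also holds CAM1 (AT5G37780), whose event lies on chromosome 1 in CAM4. Starch metabolism held 5 genes, with ISA1, PWD and NTRC, whose events were all shifts at 3′ or 5′ sites.

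At 22 °C few genes of either list, or of those in both chilling tables, were listed. Of the SmEb-dependent genes none, and of the SmEb-independent genes 1, AT4G19200, stood in the table of smeb under normal conditions, against 15 of the 746 genes in both chilling tables. AT4G19200, a proline-rich family gene, had a stretch of 108 nt (chr4:10499382-10499491) listed as a retained-intron event for smeb. It stood in both the chilling and the normal-condition table of smeb, with FDR values of 0 in the authors' deposited tables. It was not in the Col-0 chilling table. Neither its direction nor the groups set against each other are given. The stretch is not annotated as an intron.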

How the data were processed

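RNA-seq of 12 seedling libraries underlies 7 deposited tables. Tools and build named in the submitters' processing notes are Trimmomatic 0.32, TopHat2 2.0.13 and TAIR10; which tool called splicing is not given in the sources used here. Per the file headers, the values the authors deposited are p-values, adjusted p-values and FDR, with no value per sample, so depth and precision are unknown for every library, replicates could not be left out and no test between groups was run.

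The members and the lists of genes and keywords were chosen with earlier results of these data known. Authors' list rows were joined to chilling table rows by gene, kind and FDR: 420 of 420 SmEb-dependent and 382 of 383 SmEb-independent rows matched. Positions were compared with the RefSeq annotation of TAIR10.1, whose coordinates fit those of the tables. Retained introns exclude the listed end bases. The number of tests was taken, assuming Benjamini-Hochberg FDR, as the smallest for which p times that number over FDR came out whole for nearly the most events with p above 0 (tolerance 0.0001), 88.4% for smeb and 85.3% for Col-0. The p used is the value headed Adjusted P Value. The recovery was tested on simulated data, where 3 of 3 simulated tables were recovered. The simulated tables had no events left out and were built with Benjamini-Hochberg FDR. They therefore test neither the counts of unlisted events nor the assumption behind them. Genes named are, per list, the 20 with a symbol and the lowest FDR, all members of the gene lists, up to 3 per function class and up to 4 for each of 5 leading GO terms, plus others chosen after their values were seen. Shares carry 95% Wilson intervals. Python 3.11.15, pandas 2.3.3, scipy 1.17.1 and matplotlib 3.10.9 were used.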

Additional observations from a re-analysis of the deposited data

How the results depend on the processing

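Of 62 recomputed values, 51 moved by less than their 95% counting interval or, for counts, by less than 1.5 times. The difference in 3′ sites, SmEb-dependent minus SmEb-independent, narrowed to 12.0 percentage points under an FDR of 0.01 and 8.34 under 0.001, and that in cassette exons to -11.1 under 0.001. The difference in 5′ sites widened to 15.8 under 0.01 and 18.3 under 0.001, and that in retained introns to -18.4 under 0.001. SmEb-dependent genes numbered 207 under 0.01 and 95 under 0.001, and SmEb-independent genes 154 under 0.001. Under an adjusted p of 0.01, 0 SmEb-dependent and 0 SmEb-independent GO terms were left in the authors' deposited tables. The difference in always-included exons lay between -40.2 and -37.3 percentage points under 4 alternatives chosen after seeing the data; leaving out positions listed under 2 genes was also chosen then. Differences near 0 changed sign without leaving their interval: splicing genes 0.53 by reference product names, and under an FDR of 0.01 ubiquitin -0.77, unknown function 0.11 and lengths divisible by 3 -1.71. The cause was not tested. No paired analysis was possible because the tables hold no value per sample, and for the same reason no replicate could be left out. Depth is unknown, so a gene missing from a table cannot be told apart from one with too few reads.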
